A study of Mus musculus with 2 samples.

Results

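The interleukin-1 system was followed here as 9 genes: the ligands *Il1a*, *Il1b* and *Il18*, the antagonist *Il1rn*, the receptors *Il1r1*, *Il1r2* and *Il1rap*, and the inflammasome genes *Nlrp3* and *Casp1*. They were chosen by name, as the system's ligands, receptors and processing machinery, from the 32285 genes listed in both count matrices. Every member was detected in both libraries as unique molecular identifiers (UMIs, counted mRNA molecules).

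The study asked what loss of soluble guanylate cyclase (sGC, the nitric oxide receptor) in pericytes does to Lewis lung carcinoma (LLC) tumors, and sequenced single cells of tumors from 2 mouse groups on the C57BL/6 background. Both groups carried *Gucy1b1* flox/flox, which allows removal of the sGC beta subunit. The sGC Ctr group had only these alleles, and the sGC ∆PC group also carried *Cspg4*-CreER T2, a Cre recombinase that tamoxifen switches on in *Cspg4*-expressing cells, pericytes among them. Tamoxifen was dosed 5 times from the age of 4 weeks, LLC cells were placed under the skin at 8 weeks, and the tumors had grown for 2 weeks when taken. Each group is 1 library made from the pooled cells of 3 tumors, so the condition cannot be told apart from the library, differences between tumors are not seen, and no test between conditions was possible. Every interval in parentheses below is an exact 95% interval for counting error only.

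IL-1α and IL-1β are inflammatory cytokines that signal through IL-1R1 together with its partner IL-1RAP. The product of *Il1rn* occupies IL-1R1 without signaling, and IL-1R2 is a decoy that binds IL-1 without passing a signal on. IL-1β and IL-18 are made as inactive precursors that caspase-1 cuts after a sensor such as NLRP3 assembles an inflammasome. In tumors, neutrophils, monocytes and macrophages are the usual sources of IL-1β, whereas stromal and epithelial cells often carry IL-1R1. mRNA counts show neither cleavage nor secretion.

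Both IL-1 ligand genes lie side by side on chromosome 2 (GRCm38, GENCODE vM21). *Il1a* spans chr2:129299610-129309972 and *Il1b* spans chr2:129364570-129371139, both on the minus strand, 54597 bases apart with 0 protein-coding genes between them. *Il1r2* (chr1:40074079-40125231) and *Il1r1* (chr1:40225080-40317257) are plus-strand neighbors separated by 99848 bases, also with 0 protein-coding genes between them. *Il1rn* (chr2:24336853-24351494), *Il1rap* (chr16:26581704-26730117), *Nlrp3* (chr11:59541568-59566956), *Casp1* (chr9:5298517-5307265) and *Il18* (chr9:50554827-50581840) are on the plus strand. *Il1b* is overlapped on the opposite strand by *Il1bos*, and *Il18* by *Bco2* and *Tex12*. *Il1a*, *Il1r2* and *Il1rap* are overlapped on the opposite strand by *Gm14023*, *Gm16894* and *Gm20319*. On the same strand, *Gm38070* overlaps *Il1r1* and *Gm37347* overlaps *Il1r2*. Whether reads were assigned by strand is not given in the sources used here.

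The promoters of the paired ligands and of the signaling receptor are shown because their mRNAs were highest in different cells of these tumors. Each is a RefSeq window (GRCm38.p6) from 250 bases before to 50 after the annotated start, read 5′ to 3′ on the gene's strand, with matches to the searched motifs in capitals. *Il1a* (chr2:129309923-129310222, minus) held a TATA box, TATAAA, from position -32 and the AP-1 motif TGANTCA from -12. *Il1b* (chr2:129371090-129371389, minus) held TATAAA from -31, and *Il1r1* (chr1:40224830-40225129, plus, 1 of its annotated starts) held the C/EBP motif TTGCNNAA from -133.
Il1a: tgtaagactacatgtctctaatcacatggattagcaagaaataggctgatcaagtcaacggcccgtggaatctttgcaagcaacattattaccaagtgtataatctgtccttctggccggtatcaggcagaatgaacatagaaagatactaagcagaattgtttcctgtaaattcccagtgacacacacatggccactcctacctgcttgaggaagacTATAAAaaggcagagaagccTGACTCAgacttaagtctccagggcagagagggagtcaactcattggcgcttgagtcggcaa
Il1b: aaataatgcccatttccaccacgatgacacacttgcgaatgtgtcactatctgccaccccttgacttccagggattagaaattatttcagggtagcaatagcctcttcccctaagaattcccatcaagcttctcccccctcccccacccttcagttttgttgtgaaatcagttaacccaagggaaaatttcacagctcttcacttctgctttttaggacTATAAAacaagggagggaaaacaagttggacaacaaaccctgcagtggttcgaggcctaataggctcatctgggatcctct
Il1r1: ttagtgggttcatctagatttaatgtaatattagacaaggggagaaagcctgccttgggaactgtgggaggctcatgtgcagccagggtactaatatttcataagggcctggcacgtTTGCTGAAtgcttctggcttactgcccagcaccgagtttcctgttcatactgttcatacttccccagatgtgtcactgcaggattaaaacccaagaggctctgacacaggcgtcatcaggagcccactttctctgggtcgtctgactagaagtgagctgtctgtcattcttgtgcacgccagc
Searched on both strands, TATAAA was present in 13.6% of 32851 such windows over all genes, TGANTCA in 7.81% and TTGCNNAA in 10.8%. GAGGAAGT (PU.1, 3.2% of windows), TGACGTCA (CRE, 1.79%) and the NF-kB consensus (8.46%) were searched as well, without a match in the windows shown. The window of another annotated *Il1r1* start (chr1:40266336-40266635, plus), not shown, held an NF-kB match on the opposite strand at -232. These are letter matches only.

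After quality filters, 12220 of 15007 barcodes were kept in sGC Ctr and 22498 of 25631 in sGC ∆PC, and 98 barcodes occurred among the kept cells of both. Depth differed, the median kept cell holding 35776.5 UMIs in the sGC Ctr library and 8685 in that of sGC ∆PC. Cells were sorted into classes by marker UMIs per 10000, none of the markers being a member gene. The study itself used *Il1b* to name a macrophage population, whereas the classes here were built without it. A class is a range on a marker score: of the macrophages, 167 of 2233 in sGC Ctr and 585 of 3204 in sGC ∆PC lay within 1.5 times above the threshold. Each class had its own markers among its top genes, which follows from sorting by those markers and is no check of the class names. The 11 classes with at least 30 cells in both libraries were described. *Gucy1b1*, the targeted gene, had 59 UMIs in sGC Ctr pericytes and 13 in sGC ∆PC pericytes, or 125 and 36.3 CPM (UMIs of a gene scaled to the total UMIs of its class).

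*Il1b* was highest per UMI in granulocytes. Its level was 11180 CPM (10921 to 11442) in sGC Ctr granulocytes and 6985 CPM (6803 to 7170) in sGC ∆PC granulocytes. Monocytes followed, with 2224 CPM (2169 to 2281) and 1900 CPM (1848 to 1952). In both libraries these intervals lay below those of granulocytes. Mature dendritic cells had 1296 CPM (1142 to 1465) and 1815 CPM (1619 to 2028), the second overlapping the sGC ∆PC monocyte interval, and dendritic cells had 1168 CPM and 943 CPM. Macrophages stood lower, at 238 CPM (232 to 244) and 371 CPM (363 to 378). Cancer cells had 12.2 CPM and 27.6 CPM.

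**Figure D1:**
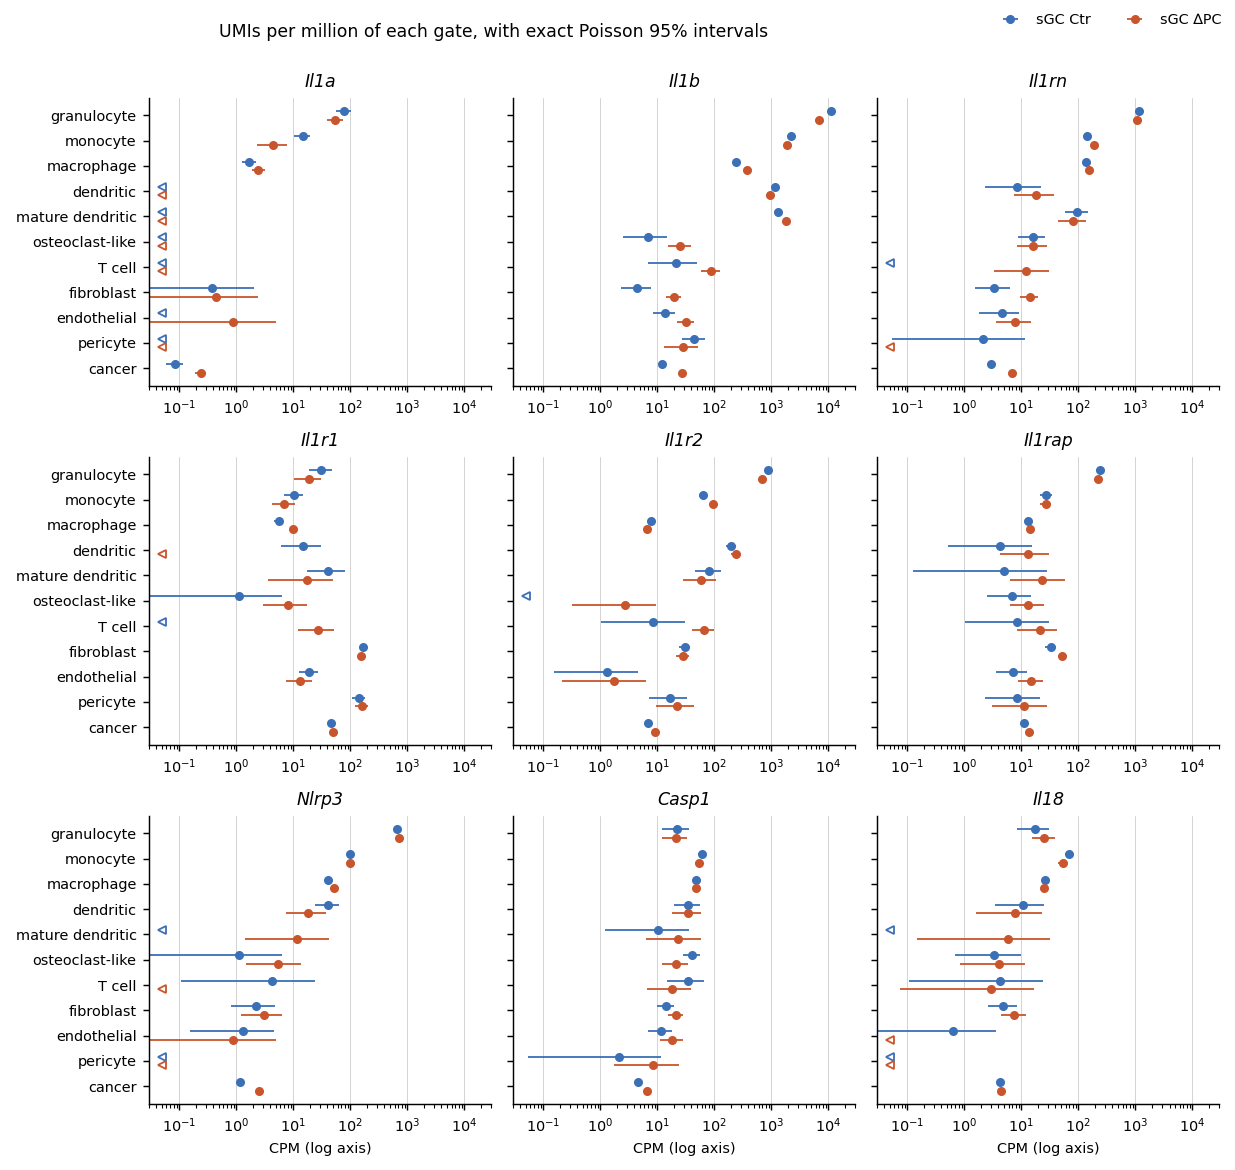
Level of each of the 9 genes (CPM, log axis) in 11 cell classes of the sGC Ctr and sGC ∆PC libraries; points are summed counts per class, bars are exact Poisson 95% intervals and open left triangles mark 0 UMIs. *Il1a*, *Il1b*, *Il1rn*, *Il1r2*, *Il1rap* and *Nlrp3* were highest in granulocytes in both libraries, and *Il1r1* was highest in fibroblasts and pericytes, at 142 to 168 CPM.

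The many macrophages held a share of the *Il1b* mRNA near or above that of the scarcer granulocytes. Granulocytes held 21.3% of the sGC Ctr library's *Il1b* UMIs and 14.1% of those of sGC ∆PC, while macrophages held 19.2% and 22.8%. Monocytes held 18.1% and 13%. Cancer cells, at a low level each but the most numerous, held 15.4% and 24.8%, the largest share of any class in sGC ∆PC, and cells of no class 16.3% and 14.7%. The top 10% of cancer cells held 84.2% and 71.4% of that class's *Il1b* UMIs. Markers of myeloid cells were also found in cancer cells, as given below, and the part of myeloid RNA in this share was not tested.

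*Il1b* was detected in nearly every granulocyte. With cells thinned to 2000 UMIs, 94.8% of 155 granulocytes (90.1% to 97.7%) in sGC Ctr and 92.7% of 206 (88.3% to 95.9%) in sGC ∆PC had at least 1 *Il1b* UMI, with 138 and 159 shallower cells left out. Thinned to 1000 UMIs, which left out 0 and 50 cells, the shares were 92.2% and 88.6%. The thinned share was 72.2% and 74.0% in monocytes and 19.0% and 29.0% in macrophages. Without thinning the shares were 96.6% and 90.7% in granulocytes, 85.1% and 81.2% in monocytes and 33.0% and 39.2% in macrophages. Endothelial cells, taken as a class with little of the gene, had an *Il1b* UMI left after this random thinning in 0 of 58 cells in sGC Ctr. This allows a share of up to 5.17%, and 0 of 55 in sGC ∆PC allows up to 5.45%. T cells had 1.85% and 3.23%. Without thinning, the endothelial cells held 21 and 36 *Il1b* UMIs, or 13.6 and 31.7 CPM, so the gene was not absent there.

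The amount per cell was spread differently in the 3 myeloid classes. The median granulocyte had 100 *Il1b* UMIs per 10000 in sGC Ctr and 47.2 in sGC ∆PC, with lower quartiles of 48.3 and 15.4. The median monocyte had 11.2 and 11.0, almost the same in both libraries. The median macrophage had 0 in both, and the top 10% of macrophages held 79.2% and 76.6% of the class's *Il1b* UMIs, against 28.6% and 34.8% for the top 10% of granulocytes.

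**Figure D2:**
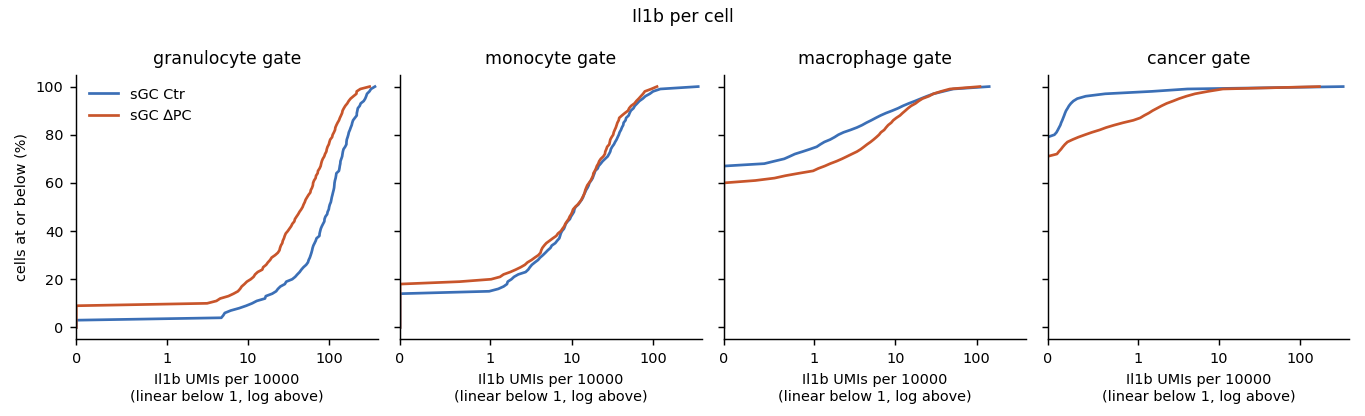
Cumulative share of cells (percent) against *Il1b* UMIs per 10000 UMIs in a cell (linear below 1, log above), for granulocytes, monocytes, macrophages and cancer cells in sGC Ctr and sGC ∆PC. The sGC ∆PC granulocytes lie to the left of those of sGC Ctr (medians 47.2 and 100), and most macrophages have no *Il1b* UMI.

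*Il1a*, the ligand that needs no caspase-1 to act, had the same leading class at a far smaller count. It reached 77.0 CPM (57.0 to 102) in sGC Ctr granulocytes and 55.1 CPM (40.0 to 73.9) in sGC ∆PC granulocytes, intervals that overlap. Monocytes had 14.6 and 4.42 CPM, macrophages 1.70 and 2.46 CPM. Dendritic cells, mature dendritic cells, osteoclast-like cells, T cells and pericytes had 0 *Il1a* UMIs in both libraries. In sGC Ctr dendritic cells, 0 UMIs allows up to 6.47 CPM, so a low level was not detectable at this depth.

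*Il1rn*, the antagonist, was also highest per UMI in granulocytes, at 1145 CPM (1064 to 1232) and 1080 CPM (1009 to 1154). Monocytes had 142 and 190 CPM and macrophages 135 CPM (131 to 140) and 155 CPM (150 to 160). By number the macrophages were the main holders, with 49.4% of the sGC Ctr library's *Il1rn* UMIs and 38.4% of those of sGC ∆PC. The balance of antagonist to *Il1b* mRNA differed between the pooled classes. Macrophages had 56.8 *Il1rn* UMIs per 100 *Il1b* UMIs (54.6 to 59.2) in sGC Ctr and 41.7 (40.2 to 43.4) in sGC ∆PC. Granulocytes had 10.2 (9.48 to 11.1) and 15.5 (14.4 to 16.6), and monocytes 6.40 and 10.0. Dendritic cells had 0.738 and 1.95, from 4 and 7 *Il1rn* UMIs, and cancer cells 24.4 and 24.9. The pooled ratio was thus lower in sGC ∆PC than in sGC Ctr in macrophages and higher in granulocytes and monocytes, each beyond counting error. Subsets of the macrophages, described below, did not all share that direction. In MHC class II high macrophages low in *Mrc1* and *Folr2* the ratio was higher in sGC ∆PC. Their *Il1rn* and *Il1b* UMIs were 278 and 2191 in sGC Ctr, and 702 and 3448 in sGC ∆PC. In *Mrc1* and *Folr2* high macrophages low in MHC class II it was lower, from 1598 and 597 UMIs to 966 and 781.

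**Figure D3:**
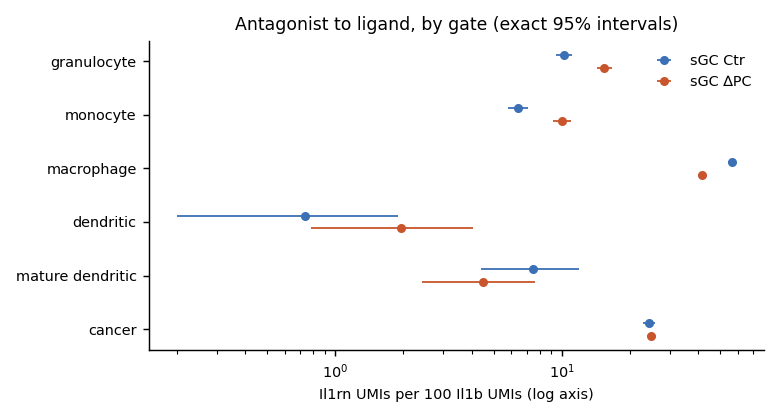
*Il1rn* UMIs per 100 *Il1b* UMIs in granulocytes, monocytes, macrophages, dendritic cells, mature dendritic cells and cancer cells of sGC Ctr and sGC ∆PC. Bars are exact 95% intervals, and classes with too few UMIs in either library are left out. Macrophages stand at 56.8 and 41.7, granulocytes at 10.2 and 15.5 and monocytes at 6.40 and 10.0.

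The signaling receptor was highest in other classes than its ligands. *Il1r1* was highest in fibroblasts, at 168 CPM (153 to 184) and 158 CPM (142 to 175), and in pericytes, at 142 CPM (110 to 180) and 159 CPM (121 to 206). Fibroblast and pericyte intervals overlapped in both libraries, so their order is not settled. Cancer cells had 46.6 CPM (46.0 to 47.3) and 50.2 CPM (49.5 to 50.9) and, being the most numerous class, held 93.3% and 91.3% of all *Il1r1* UMIs. Thinned to 2000 UMIs, 9.10% of sGC Ctr cancer cells and 9.13% of sGC ∆PC cancer cells had an *Il1r1* UMI, and without thinning 82.0% and 50.7% did. Macrophages were low, at 5.55 and 9.88 CPM.

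The decoy *Il1r2* was highest per UMI in granulocytes, at 867 CPM (796 to 943) and 687 CPM (631 to 747). Dendritic cells came next with 198 CPM (160 to 243) and 244 CPM (197 to 299), and monocytes had 64.4 and 95.1 CPM. The co-receptor *Il1rap* had 240 CPM (204 to 282) and 225 CPM (194 to 261) in granulocytes, against 33.0 and 52.9 CPM in fibroblasts and 11.2 and 13.6 CPM in cancer cells. Granulocytes therefore carried the decoy and co-receptor mRNAs at their highest levels while their *Il1r1* was at 31.4 and 18.8 CPM, from 20 and 15 UMIs. By number, cancer cells were the main holders of both mRNAs. They held 2919 of 4818 *Il1r2* UMIs in sGC Ctr and 3209 of 5350 in sGC ∆PC, against 552 and 549 in granulocytes. For *Il1rap* they held 4728 of 5707 and 4845 of 6039, against 153 and 180 in granulocytes.

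Within granulocytes, cells with more *Il1b* tended weakly to have more *Il1r2*. Over 293 sGC Ctr and 315 sGC ∆PC granulocytes thinned to 1000 UMIs, Spearman's rho between *Il1b* and *Il1r2* was 0.18 and 0.34, and between *Il1b* and *Nlrp3* 0.23 and 0.17. Between *Il1b* and *Il1rn* it was -0.03 and -0.09. These are descriptions over cells of 1 library each, in sparse counts.

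Of the inflammasome genes, the sensor and the protease were highest in different cells. *Nlrp3* was highest in granulocytes, at 671 CPM (609 to 738) and 719 CPM (662 to 781), with monocytes at 101 and 97.7 CPM and macrophages at 40.6 and 51.6 CPM. *Casp1* had its highest values in monocytes, at 60.1 and 55.3 CPM, and in macrophages, at 48.8 and 48.4 CPM. Their intervals overlapped in both libraries, so their order is not settled. The macrophage interval also overlapped that of the class next below. This was osteoclast-like cells in sGC Ctr (40.8 CPM, 36 UMIs) and dendritic cells in sGC ∆PC (34.2 CPM, 13 UMIs). Granulocytes had 22.0 and 21.3 CPM, from 14 and 17 UMIs. *Pycard*, the adaptor that joins sensor and protease, was looked up after the members' values were seen: it had 407 and 423 CPM in monocytes, 244 and 235 CPM in macrophages, and 37.7 and 41.3 CPM in granulocytes. *Il18* was highest per UMI in monocytes, at 69.2 CPM (59.7 to 79.8) and 53.5 CPM (45.1 to 62.9), with 26.0 and 25.1 CPM in macrophages. Cancer cells, at 4.25 and 4.51 CPM, held 1798 of the 2901 *Il18* UMIs in sGC Ctr and 1609 of 2645 in sGC ∆PC. Monocytes held 189 and 145.

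Between the libraries, *Il1b* was lower in sGC ∆PC than in sGC Ctr granulocytes and higher in macrophages. Ratios are given on the log2 scale with sGC ∆PC over sGC Ctr. In granulocytes the ratio was -0.68 for *Il1b* (-0.73 to -0.63) and -0.34 for *Il1r2* (-0.51 to -0.16). The intervals included 0 for *Il1a* (-0.48), *Il1rn* (-0.08), *Il1rap* (-0.09) and *Nlrp3* (0.10). Of 3034 genes with at least 50 UMIs in both granulocyte pools together, 1.45% were more than 2-fold higher in sGC ∆PC and 1.81% more than 2-fold lower, and 0 of the 6 members counted were past 2-fold either way. The median ratio was -0.22 for the 6 members and -0.0025 for all genes. The summed granulocyte markers stood at 843 per 10000 UMIs in sGC Ctr granulocytes and 606 in sGC ∆PC granulocytes, moving with *Il1b*. Among granulocytes with 500 or more marker UMIs per 10000, the *Il1b* log2 ratio was -0.48. The part of marker content in the difference was not tested.

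**Figure D4:**
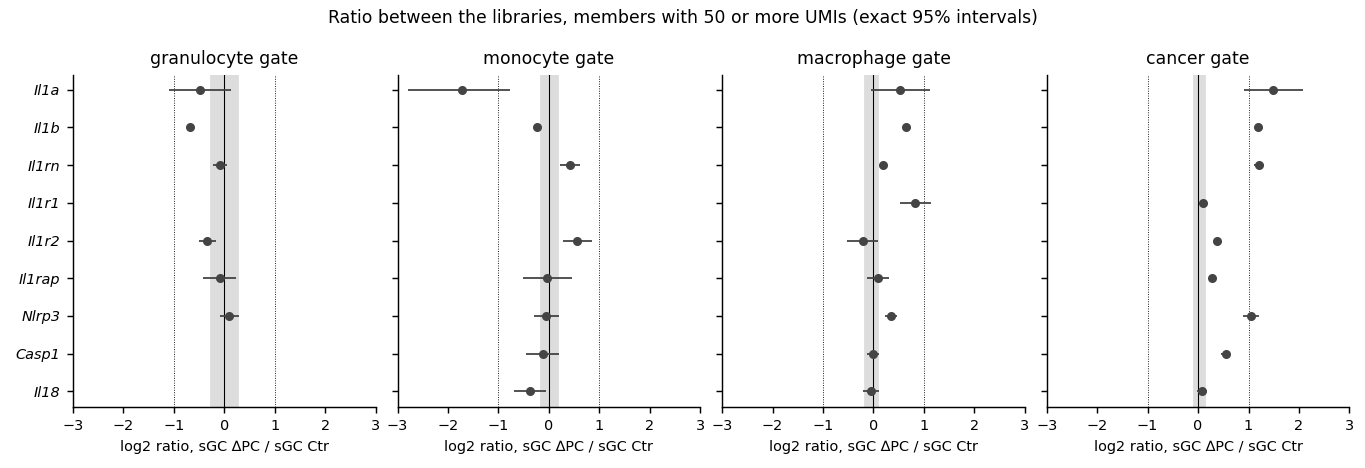
Log2 ratio (sGC ∆PC over sGC Ctr) of the members in granulocytes, monocytes, macrophages and cancer cells, with exact 95% intervals; the gray band runs from the lower to the upper quartile of all genes and dotted lines mark 2-fold. *Il1b* is at -0.68 in granulocytes, -0.23 in monocytes, 0.64 in macrophages and 1.18 in cancer cells.

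In monocytes the differences were small for most members. *Il1a* was the 1 member of 8 past 2-fold, at -1.73 (-2.79 to -0.77) from 40 and 12 UMIs. Of 7525 genes, 0.266% were past 2-fold lower and 0.518% higher. *Il1b* had a log2 ratio of -0.23 (-0.28 to -0.17), which became 0.17 with a threshold 2 times as strict. *Il1rn* was 0.42 (0.22 to 0.61), *Il1r2* 0.56 (0.28 to 0.85) and *Il18* -0.37 (-0.69 to -0.05).

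In macrophages 0 of 9 members were past 2-fold, where 1.04% of 11834 genes were higher and 0.389% lower. The median of the 9 log2 ratios was 0.19, and that of all genes -0.05. *Il1b* had a log2 ratio of 0.64 (0.59 to 0.69), *Il1r1* 0.83 (0.53 to 1.14), *Nlrp3* 0.34 (0.22 to 0.46) and *Il1rn* 0.19 (0.13 to 0.26). *Casp1* (-0.01) and *Il18* (-0.06) were at nearly the same level in both libraries. With each cell counted equally, *Il1b* was at 0.37 and *Il1rn* at -0.01. Markers of other cells were also higher in sGC ∆PC macrophages: *S100a8* and *S100a9* together stood at 68.2 and 98.3 CPM, the summed granulocyte markers at 0.848 and 1.21 per 10000 and the fibroblast markers at 3.55 and 4.91 per 10000. Their part in these ratios was not tested.

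The macrophage difference in *Il1b* was uneven over subsets defined by MHC class II genes, by *Mrc1* and *Folr2*, and by monocyte markers. In MHC class II high macrophages low in *Mrc1* and *Folr2*, the level was 737 CPM in sGC Ctr and 732 CPM in sGC ∆PC, a log2 ratio of -0.01 (-0.09 to 0.07). In *Mrc1* and *Folr2* high macrophages low in MHC class II, it was 64.1 and 149 CPM, a log2 ratio of 1.21 (1.06 to 1.37). *S100a9*, a granulocyte alarmin, was at 27.1 and 62.8 CPM there. It was at 13.1 and 36.3 CPM in the MHC class II high subset and 19.7 and 52.5 CPM in macrophages high in monocyte markers. In macrophages high in both MHC class II and *Mrc1* and *Folr2*, *S100a9* was at 85.2 and 77.4 CPM and *Il1b* at 282 and 362 CPM. In macrophages low for all 3 lists, *S100a9* was at 40.9 and 47.5 CPM and *Il1b* at 163 and 226 CPM. The part of granulocyte RNA in these values was not tested. MHC class II high cells low in *Mrc1* and *Folr2* numbered 281 and 645 in the sGC Ctr and sGC ∆PC libraries, and *Mrc1* and *Folr2* high cells low in MHC class II 678 and 566. With sGC ∆PC levels weighted to the sGC Ctr makeup of subsets, the log2 ratio of *Il1b* was 0.37. *Il1r2* went the other way in some subsets, at -1.60 (-2.39 to -0.86) in macrophages high in monocyte markers and -1.48 (-2.04 to -0.93) in the MHC class II high subset, but 1.01 (0.38 to 1.67) in macrophages low for all 3 lists.

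**Figure D5:**
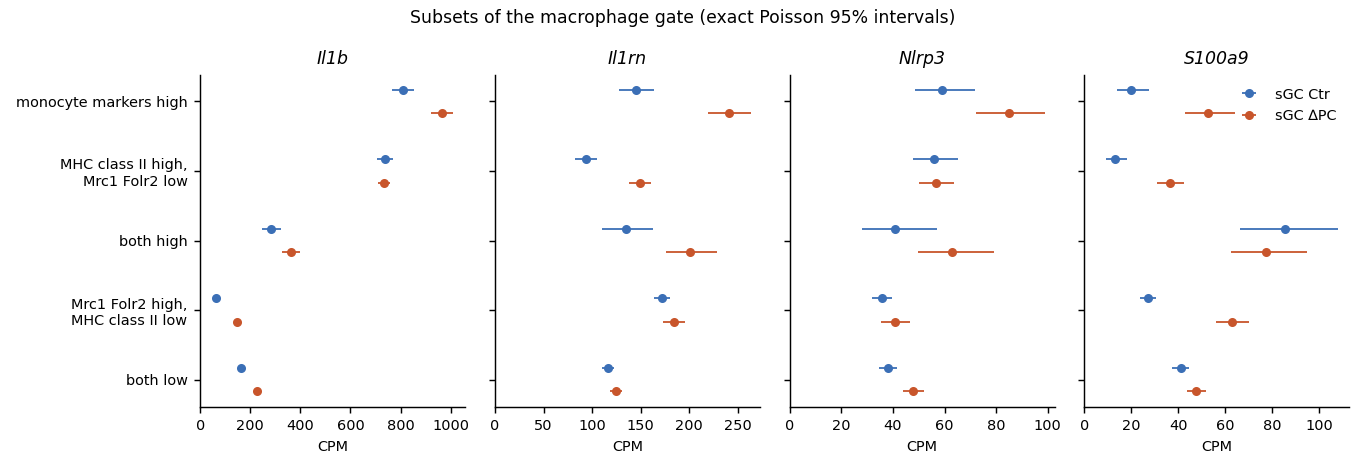
Levels (CPM) of *Il1b*, *Il1rn*, *Nlrp3* and *S100a9* in 5 macrophage subsets of sGC Ctr and sGC ∆PC, with exact Poisson 95% intervals. *Il1b* is level between libraries in MHC class II high cells low in *Mrc1* and *Folr2* (737 and 732 CPM) and apart in *Mrc1* and *Folr2* high cells low in MHC class II (64.1 and 149 CPM).

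In cancer cells 4 of 9 members were more than 2-fold higher in sGC ∆PC, against 4.48% of 15431 genes higher and 0.13% lower. They were the myeloid genes *Il1a* (log2 ratio 1.49, 0.91 to 2.09), *Il1b* (1.18, 1.13 to 1.23), *Il1rn* (1.21, 1.11 to 1.30) and *Nlrp3* (1.05, 0.89 to 1.21), whose levels there were between 0.0852 and 27.6 CPM. The median ratio was 0.55 for the 9 members and 0.01 for all genes. *Il1r1*, for which cancer cells held the largest share of UMIs of any member, was at 0.11. Markers of myeloid cells moved with these genes: the summed macrophage markers were 1.21 and 2.47 per 10000 in cancer cells, *S100a8* and *S100a9* together 24.9 and 58.0 CPM, and *Lyz2*, a myeloid lysozyme, 187 and 479 CPM. Thinned to 2000 UMIs, 2.26% and 7.93% of cancer cells had an *Il1b* UMI, against 20.7% and 28.8% without thinning. The part of myeloid RNA in these values was not tested.

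The smaller classes gave few counts. Fibroblast *Il1b* was 4.50 and 19.4 CPM (log2 ratio 2.11, 1.16 to 3.16), the 1 of 5 members past 2-fold, beside *Lyz2* at 215 and 772 CPM; of 7945 genes 1.16% were higher and 1.02% lower. Fibroblast *Il1r1* was at -0.09 (-0.29 to 0.12) and *Il1rap* at 0.68 (0.27 to 1.09). Endothelial *Il1b* was at 1.22 (0.41 to 2.07), but 30 of its 36 sGC ∆PC UMIs were in 1 cell, and with looser thresholds the ratio was -0.61; 0.821% of 6093 genes were higher and 0.722% lower. Dendritic *Il1b* was at -0.31 (-0.50 to -0.11) and mature dendritic *Il1b* at 0.49 (0.24 to 0.73), neither past 2-fold. In those classes 1.18% and 2.02% of genes were higher and 1.22% and 2.14% lower. Dendritic *S100a8* and *S100a9* together stood at 6.47 and 699 CPM. Osteoclast-like *Casp1* was at -0.92 (-1.87 to -0.04), with 1.03% of genes past 2-fold each way, and pericyte *Il1r1* at 0.17, with 1.25% higher and 1.45% lower.

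Among other genes of the pathway, the list of genes induced by IL-1 held most of those past 2-fold in granulocytes, monocytes, macrophages, fibroblasts and cancer cells. In granulocytes, 0 of 2 other family genes, 0 of 6 inflammasome genes and 0 of 8 signaling genes with enough UMIs were past 2-fold. Of the 7 induced genes counted there, *Mmp3*, a matrix protease, was higher (1.69), and *Saa3*, an acute phase protein (-3.71), and *Lcn2*, a siderophore-binding protein (-1.20), were lower. In monocytes *Mmp3* was at 1.73, *Saa3* at -2.34 and *Il33*, an alarmin of the family, at 1.75. In macrophages 4 of 8 induced genes were higher, against 1.04% of all genes. They were *Cxcl5*, a neutrophil chemokine (2.05), *Lcn2* (2.01), *Mmp3* (1.92) and *Saa3* (1.24). *Il33* (1.40) was higher as well, 1 of 6 other family genes counted there. In cancer cells 5 of 10 induced genes were higher, against 4.48% of all genes. They were *Saa3* (1.51), *Il6* (1.21), *Cxcl5* (1.19), *Cxcl2* (1.13) and *Mmp3* (1.11). Of 15 inflammasome genes, *Mefv* (1.24) and *Nlrp1b* (1.08) were higher there, and of 8 other family genes the ligand gene *Il36g* (1.42). The median of the induced list was 0.91 in macrophages and 0.85 in cancer cells, where all genes had medians of -0.05 and 0.01. In fibroblasts the list's median was 0.36. It was -0.02 in granulocytes and -0.17 in monocytes, with 5 of 7 genes below 0 in each. *Saa3* was also among the top genes of the fibroblast class in both libraries. The part of RNA from other cells in the values of this list was not tested, and neither was a response to IL-1. Because the gene lists were chosen with earlier results of these data known, these counts and medians are no test of a list. In fibroblasts 3 of 9 induced genes were higher, *Ccl2* (1.39), *Il6* (1.26) and *Cxcl2* (1.13). *Il1rl1*, the IL-33 receptor (1.03), was higher there as well, 1 of 4 other family genes counted. *Cxcl2*, another neutrophil chemokine, was higher in endothelial cells (3.41, 21 and 164 UMIs), osteoclast-like cells (3.08) and mature dendritic cells (1.97), and *Ccl2*, a monocyte chemokine, in endothelial cells (1.62), pericytes (1.45) and T cells (1.08). The shares of all genes higher in those classes were 0.821% in endothelial, 1.03% in osteoclast-like, 2.02% in mature dendritic, 1.25% in pericyte and 1.6% in T cell pools, with 0.936% lower in T cells. *Txnip*, whose product can bind NLRP3, was lower in osteoclast-like cells (-1.10). The 13 signaling genes counted in monocytes and in macrophages, *Myd88* and the *Irak* kinases among them, had 0 past 2-fold in either.

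The genes whose levels followed each member most closely over 22 pools (11 classes in 2 libraries) were found among 12761 genes by Pearson's r of log2(CPM + 1). *Il1b* was most like *Zfp36* (0.96), *Mcemp1* (0.95) and *Slc15a3* (0.94), and *Nlrp3* most like *Trem1* (0.97), *Sirpb1b* (0.95) and *B430306N03Rik* (0.94). *Il1a* was most like *Fpr1* (0.95), *Gm43660* (0.95) and *Cxcl3* (0.94). *Il1rn* was most like *Ell2* (0.92), *Cd14* and *Tlr13* (both 0.91). *Il1r2* was most like *Cd24a* (0.92), *Nup98* (0.89) and *Ifitm1* (0.88), and *Il1rap* most like *Atf4* (0.93), *Lcn2* (0.92) and *Wfdc21* (0.88). *Il1r1* was most like *Evc2* (0.93), *Dlg3* (0.90) and *Gulp1* (0.88). *Casp1* was most like *Cyth4* (0.87) and *Vsir* (0.86), and *Il18* most like *Pilrb2* (0.90), *Il6ra* and *C5ar1* (both 0.87). Pools of 1 library share its depth and its free RNA.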

How the data were processed

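Single-cell 3′ libraries of digested LLC tumors, 1 per genotype, were processed by the authors with Cell Ranger (6.1.1, mm10), and the deposited matrices hold UMI counts per gene and barcode, not normalized. The members and gene lists were chosen with earlier results of these data known. The filters were a mitochondrial share under 10% and log totals of UMIs and of genes at most 3 median absolute deviations from the median of the same library. Cells with at least 2 markers of a class and a summed marker level over a threshold were placed in that class, thresholds being set on the score distributions after seeing the data. Overlaps among myeloid classes went by rule. Macrophage took precedence over monocyte and dendritic, and dendritic over monocyte. Osteoclast-like took precedence over macrophage and monocyte, and mature dendritic over macrophage and dendritic. Of the macrophages, 186 in sGC Ctr and 301 in sGC ∆PC were also over the monocyte threshold, with *Il1b* at 809 and 965 CPM. Cells still in over 1 class were set aside as mixed (391 in sGC Ctr, 1582 in sGC ∆PC). Cells of no class numbered 818 and 2609. No doublet caller was run. UMIs were summed per class and library and given as CPM with exact Poisson intervals, ratios with exact conditional intervals and shares with exact binomial intervals. These cover counting error only. No pseudocount was used for members, and 0.5 counts were added for ratios over all genes, which needed 50 UMIs in both libraries together. All members were named. Of the pathway lists, up to 5 genes each way past 2-fold were named per class, largest first, and for each member the 3 most correlated genes among those with 500 UMIs, except that 1 such gene is not reported here. Of the listed genes, 4 were matched through older symbols. The kept cells held 476464534 (sGC Ctr) and 412064152 (sGC ∆PC) UMIs. Scripts were tested on simulated data. Python 3.11.15, numpy 2.4.6, scipy 1.17.1, pandas 2.3.3 and matplotlib 3.10.9 were used. Alternatives varied the filters, thresholds, weighting of cells, depth and scaling.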

Additional observations from a re-analysis of the deposited data

Results flagged for a closer look

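The log2 ratio, sGC ∆PC over sGC Ctr, had opposite signs between cell classes for 4 members, each with an interval clear of 0, and the differences between classes were not tested. For *Il1b* it was -0.68 in granulocytes, -0.23 in monocytes and -0.31 in dendritic cells, but 0.64 in macrophages, 0.49 in mature dendritic cells, 2.11 in fibroblasts, 1.22 in endothelial cells and 1.18 in cancer cells. Of these signs, that of monocytes turned to 0.17 with stricter thresholds, and that of endothelial cells, where 30 of the 36 sGC ∆PC UMIs were in 1 cell, turned under 3 settings. In mature dendritic cells, 97 of the 312 sGC ∆PC UMIs were in 1 cell, and 71 of the 255 sGC Ctr UMIs in 1 cell. For *Il1a* it was -1.73 in monocytes and 1.49 in cancer cells. For *Il1r2* it was -0.34 in granulocytes, 0.56 in monocytes and 0.38 in cancer cells. For *Casp1* it was -0.92 in osteoclast-like cells and 0.55 in cancer cells.

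Cells outside the described classes also held member UMIs, some members higher and some lower in sGC ∆PC. Cells set aside as mixed had *Il1b* at 258 CPM in sGC ∆PC and 236 CPM in sGC Ctr, *Il1rn* at 72.7 and 45.5 CPM, and *Nlrp3* at 26.5 and 20.4 CPM. Cells of no class had *Il1r1* at 39.6 CPM in sGC ∆PC and 30.8 CPM in sGC Ctr. The same cells had lower levels in sGC ∆PC of *Il1b* (659 and 806 CPM in sGC Ctr), *Il1a* (4.97 and 10.8 CPM) and *Il1r2* (69.3 and 80.2 CPM).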

How the results depend on the processing

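Over 435 recomputed ratios under 12 settings, 357 stayed within the counting interval, 75 moved and 3 reversed. Only a changed sign of a ratio reported past 2-fold was called reversed. Over ratios of any size, a sign other than the reported one was found 41 times, 4 differences past 2-fold were lost and 10 gained. All 3 reversals were endothelial *Il1b*: -0.61 with looser thresholds, -1.29 in cells with at most 1 cancer marker UMI per 10000 (few cancer markers) and -0.92 with cells thinned to 2000 UMIs, from 2 and 1 UMIs in a random draw separate from that of the shares, which left 0. For granulocytes, *Il1b* was -0.59 with a mitochondrial limit of 5%, -0.56 with stricter and -0.75 with looser thresholds, -0.78 as the mean of cells and -0.48 with 500 or more marker UMIs per 10000, a setting chosen after seeing the data. *Il1rn* was -0.34 with few cancer markers. *Il1r2* was -0.14 with stricter thresholds, -0.025 with few cancer markers and -0.10 with 500 or more marker UMIs. *Il1rap* was 0.30 thinned and 0.35 with 500 or more marker UMIs, and *Nlrp3* 0.32 thinned. Monocyte *Il1b* was 0.17 with stricter and -0.37 with looser thresholds. For macrophages, *Il1b* was 0.69 with the 5% limit, 0.74 stricter, 0.41 looser, 0.37 as the mean of cells, 0.48 thinned, 0.69 relative to the median gene and 0.37 with the same makeup of subsets, also chosen after seeing the data. *Il1rn* was 0.31 with the 5% limit, 0.10 with few cancer markers, -0.0086 as the mean of cells and 0.12 thinned, and *Casp1* -0.14 as the mean of cells. Fibroblast *Il1r1* was -0.63 with few cancer markers, -0.50 as the mean of cells and -0.41 thinned. The causes were not tested. Leaving out shared barcodes, also added after seeing the data, moved none of 43 ratios. No replicate could be left out, and no paired analysis was possible because each group has 1 library. The shares of all genes past 2-fold moved in 35 of 44 recomputations with 20 or 200 UMIs as the minimum, and the levels in 8 of 54, with another highest class in 3. Classes of under 100 cells limit every value given for them.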
